A study of Arabidopsis thaliana with 6 samples.

Results

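The xyloglucan endotransglucosylase/hydrolase (XTH) family of Arabidopsis thaliana was followed across 3 genotypes in RNA-seq counts. The 33 members, XTH1 to XTH33, were taken by their locus identifiers from the 32833 genes in the count tables. Plants were 21 days old, soil-grown in long days of 16 h light and 8 h dark, given no treatment, and harvested without their roots. LNJ-OX plants overexpressed LNJ, a short synthetic protein related to AFP2, from a double CaMV 35S promoter in the Col-0 background, which is active in most tissues and not only where AFP2 is expressed. The jazD plants, also of the Col-0 ecotype, carried mutations in 10 JAZ genes, which encode repressors of jasmonate signalling. Col-0 was the wild type, and each genotype had 2 libraries. The study's methods call these biological replicates and describe leaves of slightly younger plants, and the labels were followed here. The question of the comparison was whether LNJ-OX plants, which are stunted like jazD plants, changed the same genes.

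XTH enzymes work in the cell wall. They cut a xyloglucan chain and join the cut end either to another xyloglucan chain (endotransglucosylase activity) or to water (hydrolase activity), and this remodelling accompanies both the expansion of growing walls and the strengthening of walls after mechanical stimulation. The family is divided by sequence into groups I and II, which hold mostly transglucosylases, group III-A, known for xyloglucan hydrolases, and group III-B. XTH22 is also called TCH4 and is one of the classical touch-induced genes.

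The libraries held between 10164591 and 15003290 counts, of which the XTH family took between 0.0764 and 0.1275%. Values are given as CPM, counts scaled to a library of 1000000 by library total and TMM factor, and levels of different genes are compared only after division by exon length (CPM per kb). AFP2, from which LNJ was designed, had 63.5 and 50 CPM in LNJ-OX, against 8.19 and 10.99 CPM in Col-0. Per the paper's methods the synthetic constructs were amplified from the Arabidopsis genes, so these counts do not separate transgene reads from those of AFP2 itself. Of the 10 JAZ genes mutated in jazD, 9 were tested and 3 were called lower in jazD than in Col-0. JAZ10 was called higher, with 54.0 and 69.8 CPM in jazD, against 6.93 and 10.99 CPM in Col-0, and counts over a mutated gene do not show whether a whole transcript was made. The 6 leaf markers summed to between 38020 and 62040 CPM in the 6 libraries. The 7 root and root hair markers summed to between 0.751 and 2.77 CPM, with EXPA18, RHD6 and PRP3 at 0 counts in all libraries.

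Of the 33 XTH genes, 24 had enough counts to be tested and 9 did not. XTH1, XTH2, XTH12, XTH13, XTH17, XTH21 and XTH26 had 0 counts in all 6 libraries. A count of 0 allows up to 3 counts in a library, or between 0.189 and 0.315 CPM, and this limit covers counting error only. XTH14 had 1 count in replicate 1 and 0 in replicate 2 of each genotype. XTH20 had 1 and 0 counts in LNJ-OX and 0 and 2 counts in jazD, against 0 counts in both Col-0 libraries. These 9 genes were thus at or near the limit of detection in all genotypes, and several of them, such as XTH17, XTH20, XTH21 and XTH26, are known mainly from roots.

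Per length of transcript, XTH6, XTH24, XTH27, XTH4 and XTH9 led the family in LNJ-OX and Col-0, while in jazD XTH7 ranked above XTH4 and XTH9. XTH6 (AT5G65730), a group I member, averaged 143 ± 37.4 CPM per kb in LNJ-OX, 156 ± 31.1 in jazD and 138 ± 70.1 in Col-0 (SD, n = 2 libraries each). XTH24 (AT4G30270), first described as the meristem-associated gene MERI5, averaged 95.2 ± 11.6 CPM per kb in LNJ-OX, 143 ± 48.5 in jazD and 99.7 ± 2.81 in Col-0. XTH27 (AT2G01850), a group III-B gene that has a role in leaf vein development, averaged 112 ± 9.63 CPM per kb in LNJ-OX, 194 ± 23.6 in jazD and 74.6 ± 5.21 in Col-0. By these means XTH27 was the first of the family in jazD, the second in LNJ-OX and the fourth in Col-0. The order among the leading genes was not resolved by the libraries, since XTH6 and XTH27 overlapped in LNJ-OX, XTH27, XTH6 and XTH24 overlapped in jazD, and XTH6, XTH24 and XTH4 overlapped in Col-0. XTH22 held the eighth place in LNJ-OX, the tenth in jazD and the fourteenth in Col-0. At the low end XTH11, XTH29 and XTH33, a member with a predicted membrane anchor, stayed below 2 CPM per kb in every library.

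**Figure D1:**
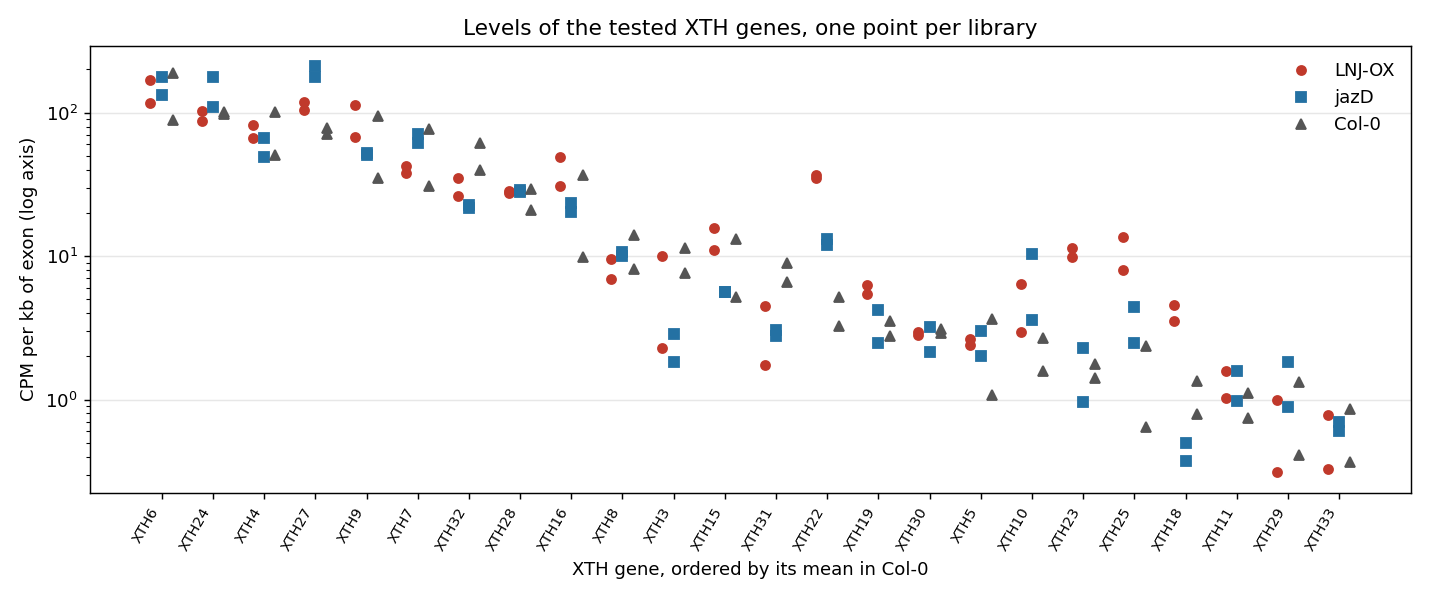
Levels of the 24 tested XTH genes in CPM per kb of exon on a log axis, with 1 point per library for LNJ-OX, jazD and Col-0, ordered from left to right by the mean in Col-0. For XTH22, XTH23, XTH25 and XTH18 the LNJ-OX points lie above those of both other genotypes, and the 9 genes that were not tested are not drawn.

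In LNJ-OX, XTH22 and XTH23 were called higher than in Col-0. No member was called lower by edgeR, DESeq2 or limma-voom. At an unadjusted p under 0.05 in edgeR, 6 members were higher and 2 lower, beside 3927 of all 21374 genes in either direction. A call required an adjusted p under 0.01 and a log2 fold change beyond 1 in either direction, both from the quasi-likelihood test of edgeR, with p-values adjusted by Benjamini-Hochberg over 21374 genes. The 2 calls among 24 tested members stand beside 1.42% of all genes called in this comparison, 0.837% higher and 0.585% lower. XTH22 (AT5G57560) had 58.6 and 55.3 CPM in LNJ-OX, against 5.17 and 8.26 CPM in Col-0. Both LNJ-OX libraries lay far above both Col-0 libraries, and the fitted difference was 8.56-fold, a log2 fold change of 3.10 ± 0.28 (standard error, adjusted p = 0.00109 by edgeR). XTH23 (AT4G25810), a close relative of XTH22 in group II, had 13.6 and 15.7 CPM in LNJ-OX, against 1.95 and 2.44 CPM in Col-0. The groups did not overlap here either, and the fitted difference was 6.68-fold, a log2 fold change of 2.74 ± 0.42 (standard error, adjusted p = 0.00586 by edgeR).

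XTH25 (AT5G57550), another group II gene, was of similar fold but more variable. It had 16.1 and 9.47 CPM in LNJ-OX, against 0.756 and 2.82 CPM in Col-0. Its log2 fold change was 2.90 ± 0.56 (standard error), and it missed the threshold at an edgeR adjusted p of 0.0157. The call of XTH22 held in all 14 alternative settings of the fit, and that of XTH23 in 11 of the 14. XTH23 missed the threshold without LNJ-OX replicate 1 (edgeR adjusted p = 0.0129), without Col-0 replicate 1 (edgeR adjusted p = 0.0371) and without Col-0 replicate 2 (edgeR adjusted p = 0.0235). XTH25 was called in 4 of the 14, among them the fit without LNJ-OX replicate 2 (edgeR adjusted p = 0.00332).

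**Figure D2:**
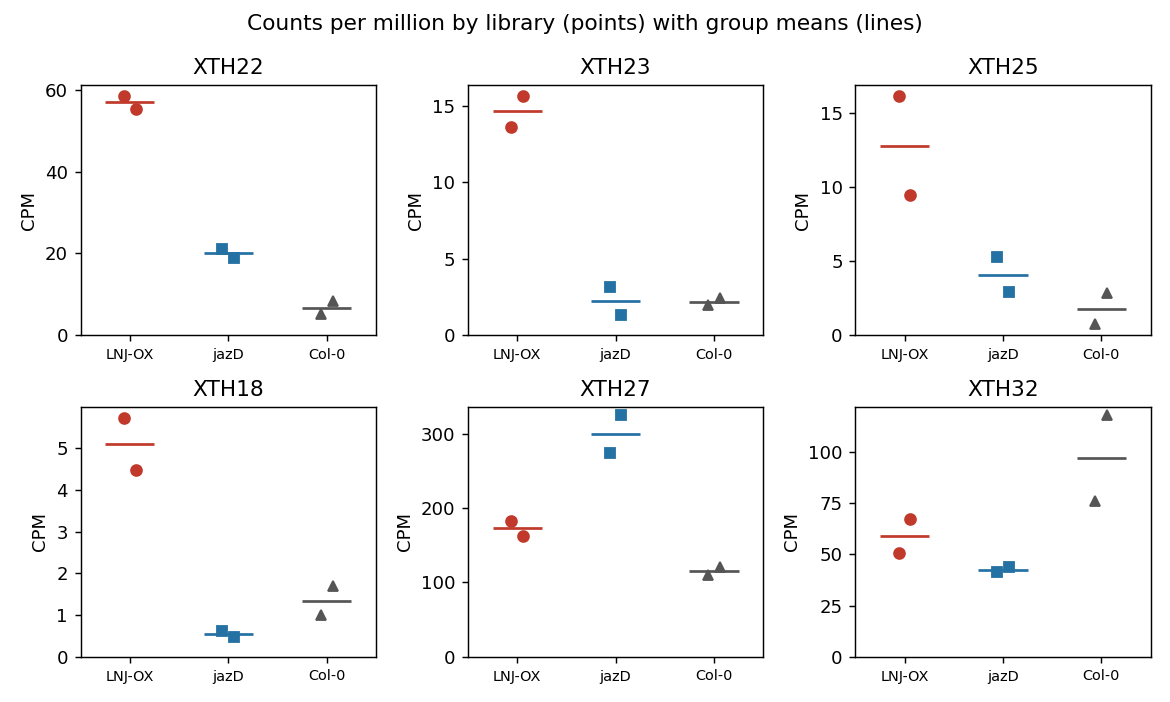
CPM of the 6 XTH genes with an edgeR adjusted p under 0.05 in any comparison, with 1 point per library, a line at the mean of each genotype, and an axis starting at 0 in each panel. XTH22, XTH23, XTH25 and XTH18 are highest in LNJ-OX, XTH27 is highest in jazD with 274 and 325.6 CPM, and XTH32 is highest in Col-0 with 76.1 and 118 CPM.

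The start-proximal DNA of these genes is shown because XTH22 and XTH25 are direct neighbours and, with XTH23, were the members of largest fold change in LNJ-OX. Each line gives the 250 bases before the annotated transcript start, 5′ to 3′ on the gene's own strand, from the RefSeq TAIR10.1 assembly. The windows are chr5:23308681-23308930 on the minus strand for XTH22, chr5:23306441-23306690 on the minus strand for XTH25, chr4:13128144-13128393 on the plus strand for XTH23, and chr4:14827212-14827461 on the minus strand for XTH18. Capitals mark matches on either strand to the W-box core TTGAC, bound by WRKY factors, which reads GTCAA on the other strand, and to CGCGTT, the core of the rapid stress response element, which reads AACGCG on the other strand.
XTH22: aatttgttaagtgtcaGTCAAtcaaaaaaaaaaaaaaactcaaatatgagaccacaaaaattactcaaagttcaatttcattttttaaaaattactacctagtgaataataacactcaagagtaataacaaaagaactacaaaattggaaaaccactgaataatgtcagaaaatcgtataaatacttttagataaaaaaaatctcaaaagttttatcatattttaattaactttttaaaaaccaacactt
XTH25: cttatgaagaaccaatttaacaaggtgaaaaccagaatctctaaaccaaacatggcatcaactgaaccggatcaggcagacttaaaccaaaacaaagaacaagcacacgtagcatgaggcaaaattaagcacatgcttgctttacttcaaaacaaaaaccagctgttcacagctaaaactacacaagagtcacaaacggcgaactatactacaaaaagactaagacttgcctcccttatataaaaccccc
XTH23: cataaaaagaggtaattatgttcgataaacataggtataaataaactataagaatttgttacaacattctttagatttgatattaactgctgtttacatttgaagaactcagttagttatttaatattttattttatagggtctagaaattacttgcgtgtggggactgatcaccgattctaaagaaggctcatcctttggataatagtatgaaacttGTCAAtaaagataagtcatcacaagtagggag
XTH18: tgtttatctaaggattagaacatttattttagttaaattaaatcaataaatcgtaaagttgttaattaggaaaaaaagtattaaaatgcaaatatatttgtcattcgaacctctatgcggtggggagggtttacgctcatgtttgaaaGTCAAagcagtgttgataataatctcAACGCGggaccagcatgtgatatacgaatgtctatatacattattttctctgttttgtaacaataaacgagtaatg
XTH22, XTH23 and XTH18 each held 1 W-box core and XTH25 none. The W-box core was in 44.9% of all 27443 promoters searched and in 15 of the 33 XTH promoters. CGCGTT was in 2.59% of all promoters and in 3 XTH promoters, those of XTH13, XTH18 and XTH20, of which XTH13 and XTH20 were at or near 0 counts. The G-box CACGTG, which MYC factors of the jasmonate pathway can bind, was in 6.49% of all promoters and the GCC-box GCCGCC, which ERF factors can bind, in 1.87%, and neither was in any XTH promoter of this length. The related element ACGCGT, whose letters can overlap those of CGCGTT, was in 1.67% of all promoters and in that of XTH13 alone among the family. These are matches of letters only.

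In jazD against Col-0, no XTH gene was called in either direction by edgeR, while 1.11% of all genes were called, 0.44% higher and 0.674% lower. At an unadjusted p under 0.05 in edgeR there were 6 members, 3 higher and 3 lower, beside 3175 of all 21374 genes. DESeq2 called 3 members (XTH22 and XTH27 higher, XTH32 lower), beside 718 of all genes. The members called by limma-voom were 0, beside 143 of all genes. XTH22 came closest, with 21.1 and 19.0 CPM in jazD, against 5.17 and 8.26 CPM in Col-0. The groups did not overlap, and the log2 fold change of 1.59 ± 0.27 (standard error) had an edgeR adjusted p of 0.0106, just past the threshold of 0.01. XTH22 was called higher in jazD in 7 of the 14 alternative settings, among them DESeq2 and the replicate block. Its log2 fold change ranged from 1.29 to 1.95 over the 14 alternatives. XTH23 had 3.15 and 1.32 CPM in jazD, against 1.95 and 2.44 CPM in Col-0, so the jazD libraries stood on both sides of the Col-0 libraries. XTH25 had 5.24 and 2.92 CPM in jazD, against 0.756 and 2.82 CPM in Col-0, with a log2 fold change of 1.25 ± 0.58 (standard error, adjusted p = 0.351 by edgeR).

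The genotypes were also compared directly, since values past the threshold in 1 of them do not show a difference between them. In LNJ-OX against jazD, XTH23 was the 1 member called, and 0.781% of all genes were called, 0.449% higher and 0.332% lower. XTH23 was 6.58-fold higher in LNJ-OX than in jazD, with a log2 fold change of 2.72 ± 0.42 (standard error, adjusted p = 0.00707 by edgeR), and both LNJ-OX libraries lay above both jazD libraries. The call was lost without jazD replicate 2 (edgeR adjusted p = 0.0784), LNJ-OX replicate 2 (0.0152), jazD replicate 1 (0.0107), Col-0 replicate 1 (0.011) or Col-0 replicate 2 (0.0102). XTH22 was higher in LNJ-OX by a log2 fold change of 1.51 ± 0.26 (standard error), which missed the threshold (edgeR adjusted p = 0.0127). It passed without Col-0 replicate 1 (edgeR adjusted p = 0.00331) and without Col-0 replicate 2 (0.00313). For XTH25 the log2 fold change was 1.66 ± 0.53 (standard error, adjusted p = 0.168 by edgeR).

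**Figure D3:**
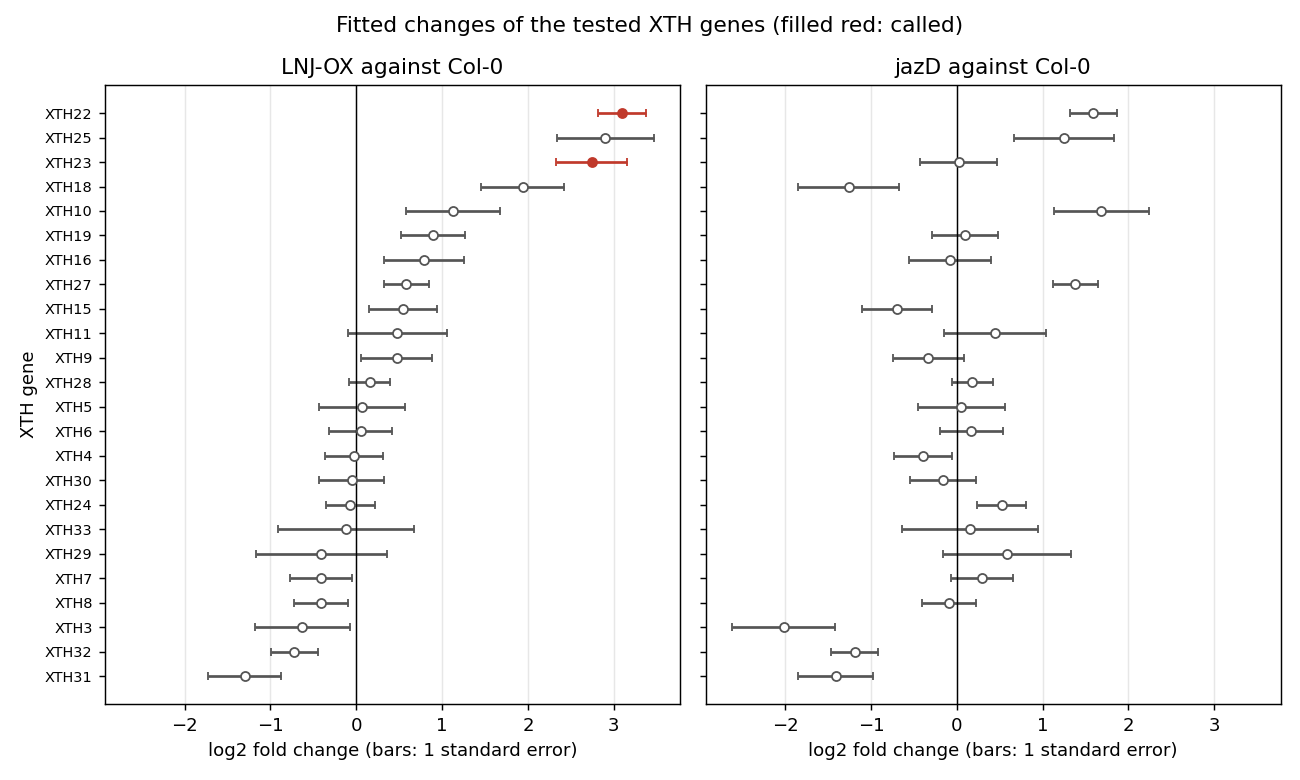
Fitted log2 fold changes of the 24 tested XTH genes in LNJ-OX against Col-0 (left) and jazD against Col-0 (right), with bars of 1 standard error and genes in the same order in both panels. Filled red points, XTH22 at 3.10 and XTH23 at 2.74, are called, and both panels share the Col-0 libraries.

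Across the family, log2 fold changes were above 0 for 14 of 24 members in LNJ-OX against Col-0, with a median of 0.11, beside -0.01 over all genes tested. The median moved to 0.56 without Col-0 replicate 2 and to 0.005 without Col-0 replicate 1. In jazD against Col-0, 14 of 24 were above 0 with a median of 0.07, beside 0.01 over all genes, and the median was -0.19 without Col-0 replicate 1 and 0.31 without Col-0 replicate 2. In LNJ-OX against jazD, 15 of 24 were above 0 with a median of 0.11, beside 0.00 over all genes, and 0.42 without jazD replicate 1. The libraries of the groups did not overlap for 9 members in LNJ-OX against Col-0, where 47.8% of all genes did not, for 9 in jazD against Col-0 (40.6% of all genes) and for 13 in LNJ-OX against jazD (50.4% of all genes).

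The 2 Col-0 libraries were far apart for many members. Of the 24 tested members, 10 were more than 2-fold apart between the Col-0 libraries, 8 of them higher in replicate 2, whereas 12.2% of all genes tested were as far apart. For LNJ-OX the count was 5 members (7.12% of all genes) and for jazD 2 members (6.9% of all genes). The family summed to 1009 and 1212 CPM in LNJ-OX and 1233 and 1069 CPM in jazD, against 722 and 1219 CPM in Col-0. The leaf markers moved the same way between the Col-0 libraries, at 38090 and 62040 summed CPM in replicates 1 and 2, and their part in the XTH values was not tested.

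Within group II the remaining tested members gave a mixed picture. XTH18 (AT4G30280) had 5.73 and 4.47 CPM in LNJ-OX and 0.629 and 0.471 CPM in jazD, against 1.01 and 1.69 CPM in Col-0. LNJ-OX stood above Col-0 and jazD below it, and neither difference was called. The log2 fold change was 1.94 ± 0.48 against Col-0 in LNJ-OX (standard error, adjusted p = 0.0448 by edgeR). It was -1.26 ± 0.59 in jazD (standard error, adjusted p = 0.352 by edgeR). Between LNJ-OX and jazD the XTH18 log2 fold change was 3.20 ± 0.55 (standard error, adjusted p = 0.0126 by edgeR), and the jazD libraries held only 6 and 5 counts. XTH19 (AT4G30290), its neighbour, had 8.36 and 7.23 CPM in LNJ-OX and 5.66 and 3.3 CPM in jazD, against 3.72 and 4.69 CPM in Col-0. The LNJ-OX libraries of XTH19 lay above all others, with a log2 fold change of 0.90 ± 0.37 against Col-0 (standard error, adjusted p = 0.225 by edgeR).

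XTH18 and XTH19 may share reads, since their coding sequences are 89.0% identical and hold 1 exact stretch of 68 bases, from chr4:14826483-14826550 in XTH18 and chr4:14829475-14829542 in XTH19, both on the minus strand and each within 1 exon. It is shown because reads lying wholly within it match both genes equally.
XTH18 and XTH19: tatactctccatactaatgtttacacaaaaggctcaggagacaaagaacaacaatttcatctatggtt
How the counting treated such reads is not given in the sources used here, so values of this pair are less certain than those of XTH22, whose longest stretch shared with another member (XTH21, at 0 counts) is 30 bases. XTH17, the member most identical to XTH18, had 0 counts. The longest stretch that XTH23 shares with another member is 24 bases (XTH22), and that of XTH25 is 24 bases (XTH16).

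XTH24, XTH15 and XTH16 are the other detected group II genes. XTH24 had 105 and 125 CPM in LNJ-OX and 215 and 132 CPM in jazD, against 123 and 118 CPM in Col-0. LNJ-OX overlapped Col-0, and both jazD libraries were above both Col-0 libraries without a call. XTH16 had 37.7 and 59.3 CPM in LNJ-OX and 28.5 and 24.5 CPM in jazD, against 12.0 and 44.4 CPM in Col-0, so the Col-0 libraries spanned the jazD values. XTH15 had 13.2 and 19.0 CPM in LNJ-OX and 6.82 and 6.79 CPM in jazD, against 6.3 and 16.0 CPM in Col-0. Between LNJ-OX and jazD the XTH15 log2 fold change was 1.24 ± 0.41 (standard error, adjusted p = 0.183 by edgeR). XTH15 overlaps AT4G14120 on the opposite strand over 382 bases, so without a stated strand setting reads of the 2 genes cannot be told apart there. It is the 1 member with an overlapping gene in the annotation.

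Several of these genes stand side by side on the chromosomes. On chromosome 5, XTH13, XTH25 and XTH22 follow each other directly on the minus strand, with 686 bases between XTH13 and XTH25 and 565 between XTH25 and XTH22, and XTH12 lies 1 gene further. XTH12 and XTH13 had 0 counts in all 6 libraries beside XTH25 and XTH22, which were detected in every library. On chromosome 4, XTH23 and XTH14 are 363 bases apart on the plus strand, and XTH14 had at most 1 count per library beside 207 and 182 counts of XTH23 in LNJ-OX. XTH24, XTH18 and XTH19 also follow each other directly on chromosome 4, and of these XTH24 was the most abundant per length in every library. Direct neighbours thus differed widely in level.

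**Figure D4:**
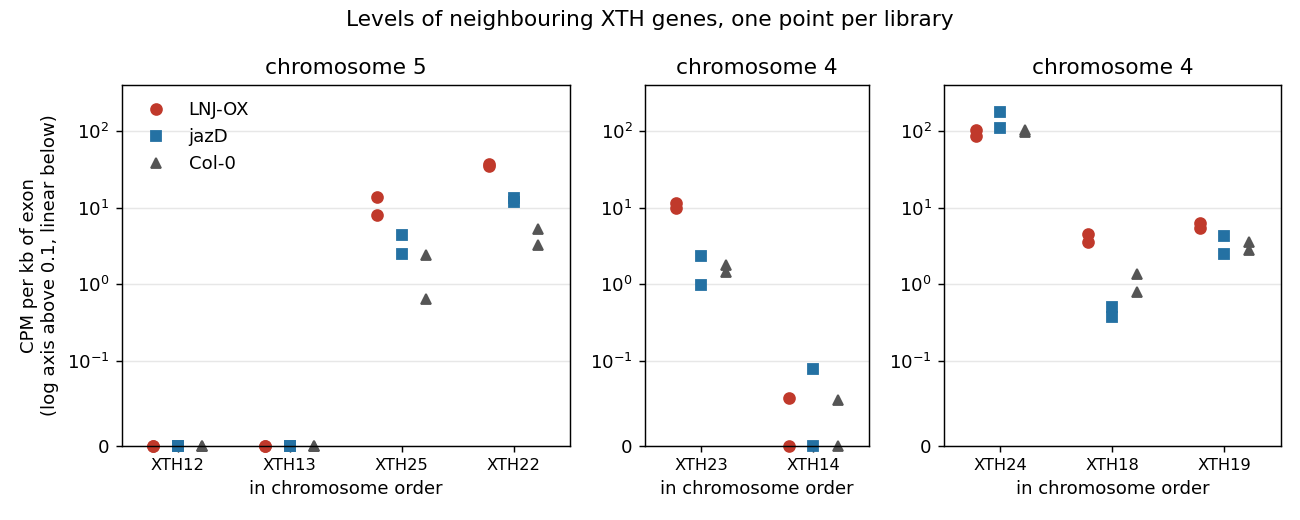
CPM per kb of exon of neighbouring XTH genes in chromosome order, 1 point per library, on an axis that is logarithmic above 0.1 and linear below (1 gene that is not an XTH lies between XTH12 and XTH13). XTH12 and XTH13 lie at 0 beside XTH25 and XTH22, and XTH14 lies below 0.1 beside XTH23.

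In group III-B, XTH27 was the member with the highest values in jazD. It had 183 and 162 CPM in LNJ-OX and 274 and 325.6 CPM in jazD, against 110 and 121 CPM in Col-0. The jazD libraries were above all others, with a log2 fold change of 1.38 ± 0.26 against Col-0 (standard error, adjusted p = 0.016 by edgeR), which missed the threshold. In LNJ-OX the log2 fold change was 0.58 ± 0.26 (standard error, adjusted p = 0.26 by edgeR), and in LNJ-OX against jazD it was -0.79 ± 0.26 (standard error, adjusted p = 0.182 by edgeR). XTH28, the member most identical to XTH27 in coding sequence and known for stamen filament growth, had 40.8 and 42.6 CPM in LNJ-OX and 43.2 and 41.7 CPM in jazD, against 31.3 and 43.7 CPM in Col-0, and its groups overlapped. XTH29, XTH30 and XTH33 stayed at or below 4.51 CPM in all libraries and were not called in any comparison.

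Both members of group III-A had lower values in the altered genotypes than in Col-0, without a call by edgeR, while DESeq2 called XTH32 lower in jazD. XTH32 (AT2G36870) had 50.4 and 67.3 CPM in LNJ-OX and 41.4 and 43.6 CPM in jazD, against 76.1 and 118 CPM in Col-0. Every LNJ-OX and jazD library was below both Col-0 libraries, and the XTH32 log2 fold change was -0.72 ± 0.27 for LNJ-OX (standard error, adjusted p = 0.182 by edgeR). For jazD it was -1.19 ± 0.28 (standard error, adjusted p = 0.0376 by edgeR). XTH31 (AT3G44990), an enzyme with mainly hydrolase activity, had 6.25 and 2.41 CPM in LNJ-OX and 3.88 and 4.24 CPM in jazD, against 9.26 and 12.4 CPM in Col-0. The XTH31 log2 fold change was -1.30 ± 0.43 for LNJ-OX (standard error, adjusted p = 0.123 by edgeR), and for jazD -1.41 ± 0.44 (standard error, adjusted p = 0.116 by edgeR). The 2 comparisons share the Col-0 libraries.

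The DNA that encodes the catalytic site differs between members and is shown for the members whose values are described most. Each line gives 45 bases of coding sequence, 5′ to 3′ on the gene's own strand, from the RefSeq TAIR10.1 assembly, with the 27 bases of the 9 catalytic-site codons in capitals.
XTH22: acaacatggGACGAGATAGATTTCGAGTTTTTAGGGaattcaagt
XTH23: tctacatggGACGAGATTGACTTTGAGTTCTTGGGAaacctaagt
XTH25: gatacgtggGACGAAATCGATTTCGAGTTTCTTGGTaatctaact
XTH18: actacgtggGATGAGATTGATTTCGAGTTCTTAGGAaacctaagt
XTH27: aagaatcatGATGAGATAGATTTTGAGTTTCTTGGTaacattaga
XTH31: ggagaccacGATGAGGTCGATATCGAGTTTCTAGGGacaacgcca
XTH32: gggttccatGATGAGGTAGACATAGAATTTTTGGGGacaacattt
The capitals lie within coding exons at chr5:23307839-23307865 (XTH22, minus strand), chr4:13129072-13129098 (XTH23, plus), chr5:23305797-23305823 (XTH25, minus), chr4:14826569-14826595 (XTH18, minus), chr2:385891-385917 (XTH27, plus), chr3:16447882-16447908 (XTH31, minus) and chr2:15474073-15474099 (XTH32, minus). XTH23 differed from XTH22 at 6 of the 27 bases, XTH25, XTH27 and XTH31 at 5, XTH18 at 4 and XTH32 at 7. For XTH23, XTH25, XTH18 and XTH27 these were synonymous, while XTH31 and XTH32 encoded 2 other residues than XTH22, as did XTH29, XTH30 and XTH33 of group III-B and XTH9 of group I. The site was found by this search in 32 of the 33 members, XTH11 being the exception.

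Group I held several of the abundant members, among them XTH6, and none of its 9 tested genes was called in any comparison by edgeR, DESeq2 or limma-voom. At an unadjusted p under 0.05 in edgeR there were 0 genes in LNJ-OX against Col-0, 2 in jazD against Col-0 and 1 in LNJ-OX against jazD. Over all 21374 genes the counts at that p were 3927, 3175 and 2808 in the same order. XTH6 had 172 and 249.6 CPM in LNJ-OX and 261 and 196 CPM in jazD, against 131 and 276 CPM in Col-0. XTH4, which acts in secondary walls of the xylem together with XTH9, had 108 and 133 CPM in LNJ-OX and 108 and 78.9 CPM in jazD, against 81.3 and 164 CPM in Col-0. XTH9 had 103 and 172 CPM in LNJ-OX and 80.3 and 77.3 CPM in jazD, against 53.6 and 145 CPM in Col-0. For XTH6 the Col-0 libraries spanned all the others, and for XTH4 and XTH9 their range overlapped both other genotypes. XTH7 had 55.0 and 49.0 CPM in LNJ-OX and 91.4 and 79.0 CPM in jazD, against 39.6 and 99.3 CPM in Col-0. Here the LNJ-OX libraries lay below both jazD libraries, and both lay inside the range of Col-0.

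XTH3 and XTH10 were the group I genes of largest fold change. XTH3 (AT3G25050) had 2.5 and 11.02 CPM in LNJ-OX and 3.15 and 1.98 CPM in jazD, against 8.38 and 12.4 CPM in Col-0. Its log2 fold change in jazD was -2.02 ± 0.60 (standard error, adjusted p = 0.103 by edgeR), and it passed the threshold without LNJ-OX replicate 1 (edgeR adjusted p = 0.00617) or without LNJ-OX replicate 2 (0.00817), libraries that enter only through the shared spread. XTH10 (AT2G14620) had 8.76 and 4.04 CPM in LNJ-OX and 14.2 and 4.9 CPM in jazD, against 3.65 and 2.16 CPM in Col-0. Its log2 fold change was 1.69 ± 0.55 in jazD (standard error, adjusted p = 0.138 by edgeR), and replicate 1 was the higher library in all 3 genotypes. XTH5, XTH8 and XTH11 ranged between 0.939 and 17.1 CPM and were not called in any comparison.

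XTH3 is set beside markers of flowers and pollen. The 8 pollen and tapetum markers summed to 17.1 and 99.0 CPM in LNJ-OX and 15.7 and 20.6 CPM in jazD, against 139.8 and 111 CPM in Col-0. In LNJ-OX the library with the high XTH3 value (replicate 2) was also the one with the higher sum. The order was the opposite in jazD (XTH3 at 3.15 and 1.98 CPM) and in Col-0 (8.38 and 12.4 CPM), where the library with more XTH3 had the lower sum. The 2 parts of the list differed. The 3 tapetum markers (A9, A6 and MS2) summed to 13.7 and 64.0 CPM in LNJ-OX and 7.34 and 6.03 CPM in jazD, against 7.81 and 22.4 CPM in Col-0. The 5 pollen markers summed to 3.36 and 35.0 CPM in LNJ-OX and 8.39 and 14.5 CPM in jazD, against 132 and 88.4 CPM in Col-0, so that both LNJ-OX libraries were below both Col-0 libraries for pollen and not for tapetum. All 8 markers were detected in Col-0. AGP11, an arabinogalactan protein of pollen, was called lower in LNJ-OX and in jazD by edgeR, and the other 7 were not. DESeq2 called 2 lower in each genotype, and limma-voom 2 in LNJ-OX and 0 in jazD. Over all 21374 genes edgeR, DESeq2 and limma-voom called 125, 355 and 84 lower in LNJ-OX, and 144, 441 and 65 lower in jazD. The 7 floral organ markers summed to 68.3 and 129.7 CPM in LNJ-OX and 32.4 and 45.1 CPM in jazD, against 106 and 129.6 CPM in Col-0, with SEP2 called lower in jazD. In bulk samples fewer cells of a type and less RNA per cell cannot be told apart, and the part of these transcripts in the XTH3 values was not tested.

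XTH22 is set beside the other touch and rapid-response genes. The 10 genes of that list, without XTH22, summed to 591 and 512 CPM in LNJ-OX and 292 and 279.5 CPM in jazD, against 164 and 182 CPM in Col-0, and TCH3 made up most of the sum in LNJ-OX. Single genes differed in their order of genotypes. The means of ZAT10, ERF5, CML38 and CML39 were not highest in LNJ-OX, and CML39 had too few counts to be tested. Of the 8 tested, edgeR called 2 higher in LNJ-OX, DESeq2 3 and limma-voom 1. Over all 21374 genes these tools called 304, 822 and 235 in either direction. In jazD each of the tools called 0 of the 8. At an unadjusted p under 0.05 in edgeR there were 5 in LNJ-OX and 4 in jazD, beside 3927 and 3175 of all genes. TCH3, a calmodulin-like calcium sensor induced by touch, had 401 and 372 CPM in LNJ-OX and 159 and 143 CPM in jazD, against 79.3 and 103 CPM in Col-0 (log2 fold change 2.08 in LNJ-OX, edgeR adjusted p = 0.00365). WRKY40, a rapidly induced transcription factor, had 28.8 and 19.2 CPM in LNJ-OX and 14.3 and 10.9 CPM in jazD, against 8.0 and 5.26 CPM in Col-0 (log2 fold change 1.84 in LNJ-OX, edgeR adjusted p = 0.00906). TCH2, another calmodulin-like touch gene, had 38.0 and 37.2 CPM in LNJ-OX and 36.5 and 36.3 CPM in jazD, against 22.3 and 33.8 CPM in Col-0, and was not called. Their part in the XTH22 values was not tested.

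**Figure D5:**
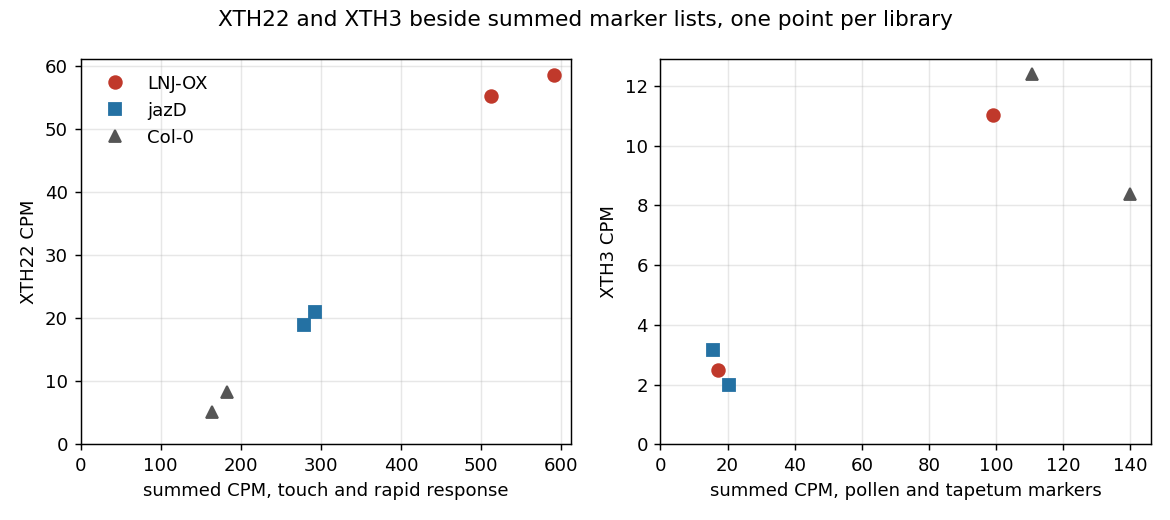
XTH22 against the summed CPM of 10 touch and rapid-response genes (left) and XTH3 against the summed CPM of 8 pollen and tapetum markers (right), 1 point per library and both axes starting at 0. XTH22 and the sum of its list are highest in LNJ-OX and lowest in Col-0, while for XTH3 the LNJ-OX library with 99.0 summed marker CPM lies near Col-0 and the other near jazD.

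The other genes of xyloglucan metabolism had no call in any comparison. None of the 15 genes for the backbone and side chains was called by edgeR, DESeq2 or limma-voom. At an unadjusted p under 0.05 in edgeR there were 4 in LNJ-OX against Col-0, 1 higher (XXT1) and 3 lower. The lower ones were CSLC5, XLT2 and AXY4, with log2 fold changes of -0.63, -0.56 and -0.65. In jazD against Col-0 there were 3, all lower, and in LNJ-OX against jazD 2, 1 higher and 1 lower. Over all 21374 genes the counts at that p were 3927, 3175 and 2808 in the same order. The median log2 fold changes of the 15 genes were -0.11, -0.31 and 0.13. XXT1, a xylosyltransferase of xyloglucan synthesis, had 20.4 and 15.4 CPM in LNJ-OX and 14.5 and 15.0 CPM in jazD, against 10.3 and 9.58 CPM in Col-0. MUR3, a galactosyltransferase, had 35.0 and 32.3 CPM in LNJ-OX and 22.1 and 17.9 CPM in jazD, against 35.2 and 34.2 CPM in Col-0. Of these the jazD libraries of MUR3 were below all others and the Col-0 libraries of XXT1 below all others. The 4 genes that trim xyloglucan in the wall were not called by any of the 3 tools either, with 2 at an unadjusted p under 0.05 in edgeR in LNJ-OX and 0 in jazD. AXY8, a fucosidase of the wall, had 51.7 and 67.6 CPM in LNJ-OX and 48.5 and 39.9 CPM in jazD, against 32.1 and 33.4 CPM in Col-0 (log2 fold change 0.86 in LNJ-OX, edgeR adjusted p = 0.068).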

How the data were processed

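Plants of 3 genotypes, with 2 libraries each, were sequenced (6 samples). The authors deposited, for each library, whole-number counts of reads by gene from htseq-count. Per the submitters' processing notes, the tools were Trim Galore 0.6.3, HISAT2 2.1.0, HTSeq 0.9.1 and limma 3.38.3 with the TAIR10 build. Annotation, strand setting and treatment of reads with several matches are not given in the sources used here. Tables of the authors' own comparisons (log2 fold changes, p-values and mean expression) were not used.

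The filterByExpr filter, TMM factors and the functions glmQLFit and glmQLFTest of edgeR 4.0.16 (R 4.3.3) were applied to all 6 libraries together, which left 21374 genes and a biological coefficient of variation of 0.232. A gene was called at a Benjamini-Hochberg adjusted p under 0.01 and an absolute log2 fold change above 1, the study's thresholds. CPM are counts scaled to 1000000 over library total times TMM factor. Standard errors come from the fit, as the log2 fold change over the root of its F statistic. Gaps between libraries of a genotype used log2(CPM + 0.1). Lines for unassigned reads were absent. The edgeR p-values of this fit test each fold change against a spread between libraries that was estimated from all 6 libraries together. That spread rests on only 2 libraries per genotype.

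All 33 XTH genes were reported, with values per library for those called, those of at least 50 CPM in any library and those not tested, and ranges or single values for the rest. The members, the lists and the tests were chosen with earlier results of these data known. Exon lengths, gene order and sequences were taken from RefSeq TAIR10.1, and the count tables carry no coordinates. Catalytic-site codons were found by translating each gene's longest coding sequence, and identity was counted over globally aligned bases. DESeq2 1.42.0, limma-voom (limma 3.58.1), other scaling, other filters, a replicate block, fits of 4 libraries, an adjusted p under 0.05 and leaving out each library were the alternatives. The fit was tested on simulated data first.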

Additional observations from a re-analysis of the deposited data

Results flagged for a closer look

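XTH23, with only 30 and 14 counts in jazD, was called in LNJ-OX against jazD in the main fit and in 9 of 14 alternative settings. It was called higher in LNJ-OX and not in jazD against Col-0, and the log2 fold change of LNJ-OX against jazD was 2.72 (edgeR adjusted p = 0.00707), with both LNJ-OX libraries above both jazD libraries.

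XTH18 stood above both Col-0 libraries in both LNJ-OX libraries and below both in jazD. The difference was tested directly as LNJ-OX against jazD, at a log2 fold change of 3.20 that missed the threshold of 0.01 (edgeR adjusted p = 0.0126).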

How the results depend on the processing

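With 2 libraries per genotype, counts of calls moved with the tool and with single libraries. In LNJ-OX against Col-0 the 2 members called (2 higher) became 4 without a filter on low counts and 4 at an adjusted p under 0.05, and ranged from 1 to 3 when each library was left out. In jazD against Col-0 the 0 members called became 6 (3 higher, 3 lower) without a filter, 3 (2 higher, 1 lower) with DESeq2, 2 (1 higher, 1 lower) with the 4 libraries compared, 1 (1 higher) with the replicate block and 3 (2 higher, 1 lower) at an adjusted p under 0.05, and ranged from 0 to 2 (0 to 1 higher, 0 to 1 lower) with a library left out. In LNJ-OX against jazD the 1 member called (higher) became 2 with library totals, 5 without a filter, 3 with DESeq2, 2 with the 4 libraries, 3 with the replicate block and 3 at an adjusted p under 0.05, and ranged from 0 to 1 with a library left out. Across all genes, too, dropping the filter raised the calls in LNJ-OX against Col-0 to 1398, DESeq2 to 822 and the block to 670, beside 304, and library totals put 74.0% of the calls on the higher side, beside 58.9%. In jazD against Col-0 they were 1310, 718 and 654, beside 238, and library totals put 49.6% on the higher side, beside 39.5%.

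The median log2 fold change of the family ranged from 0.005 to 0.56 in LNJ-OX against Col-0 and from 0.11 to 0.42 in LNJ-OX against jazD with a library left out. Of single genes, XTH23 in jazD against Col-0 (0.02) turned to -0.0886 with limma-voom and ranged from -0.72 to 0.53 with a library left out, and XTH3 in LNJ-OX against jazD (1.38) ranged from -0.0351 to 2.11. The cause was not tested.

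The replicate numbers do not mark a shared batch in the labels, and same-numbered libraries deviated together with correlations across genes of 0.0891 (LNJ-OX and Col-0), 0.0587 (jazD and Col-0) and -0.00281 (LNJ-OX and jazD), so they were not taken as pairs. With the block, XTH22 in jazD (edgeR adjusted p = 0.00294) and XTH25 in LNJ-OX (edgeR adjusted p = 0.00306) passed the threshold.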
